A study of Mus musculus with 6 samples.

Results

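The genes described here are 10 genes around ATF4, the transcription factor of amino acid stress, and the synthesis of serine. They are Atf4, Atf5, Ddit3, Trib3, Chac1, Asns, Phgdh, Psat1, Psph and Shmt2. They were chosen by name with earlier log2 ratios and net brightnesses of these same arrays in view, so their values are a description and carry no test. All 10 were on the array, out of 17865 named genes, and were read by 14 of its 31769 gene spots. Phgdh had 4 spots, Atf4 had 2 and the others had 1 each. The Lmx1a RNA came from MN9D cells transfected with pcDNA3.1(-)-Lmx1a, and the control RNA from MN9D cells transfected with empty pcDNA3.1(-). Both kinds of dish also received pBluescript SKII(+) as carrier DNA and Lipofectamine 2000. MN9D is a mouse hybrid line made by fusing embryonic midbrain cells with neuroblastoma cells. Of 12 markers of midbrain dopamine neurons on the array, Th, Ddc, Slc18a2 and Drd2 were detected in both channels of every array, while Slc6a3, Pitx3, Foxa2 and Aldh1a1 were detected on none. Of 5 noradrenergic and neuroblastoma markers, 4 were detected in both channels of every array, as were 1 of 4 astrocyte, 1 of 3 oligodendrocyte, 2 of 4 microglia and leukocyte and 1 of 4 fibroblast markers.

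Each of 3 RNA pools came from 3 dishes of Lmx1a-transfected cells and was hybridised against 1 control pool from 9 dishes. Every pool was run on 2 arrays, once with the Lmx1a RNA in Cy5 and once in Cy3, which gave 6 arrays and n = 3. Over all gene spots, the Lmx1a over control ratios of these 2 arrays correlated at r = -0.095, 0.032 and -0.21 in pools 1, 2 and 3. Over the 10 genes r was -0.26, 0.68 and -0.28. A pool mean is thus not the average of 2 like readings across spots. Whether each pool was its own transfection is not in the labels, so any p-value measures the spread between these pools only. The shared control pool is 1 sample, and its own spread is not in any error given here. Between 49.2% and 67.7% of gene spots were detected in the Lmx1a channel, and the lowest share was on the array of pool 1 with Lmx1a RNA in Cy3. The log2 ratio of Lmx1a itself averaged 2.49 ± 0.68 (SD, n = 3) and lay above 0 on each of the 6 arrays. Its spot had 40.5 to 1159 units of net brightness in the Lmx1a channel and 6.66 to 57.7 in the control channel, where 5 of 6 arrays detected it. The control channel was thus about as dim as the offset of 50 units added in background correction, and no fold is given. Its limma adjusted p was 0.0779 in the fit of 3 pools, tied as the smallest of all spots, and 0.0121 in the replicate block fit. Amt, described below, had the same adjusted p in each fit. Its unadjusted limma p in the fit of 3 pools was smaller than that of Lmx1a, 5.51e-05 against 6.36e-05. All 10 genes were detected in both channels of every array, at 12 of their 14 spots.

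ATF4 is a basic leucine zipper transcription factor. Its mRNA is translated more when kinases of the integrated stress response phosphorylate eIF2alpha, as happens under amino acid shortage or misfolded protein in the endoplasmic reticulum, so an mRNA ratio does not give the protein. ATF4 switches on amino acid synthesis, transport and tRNA charging, and under longer stress the genes of CHOP and TRIB3. In the serine pathway PHGDH, PSAT1 and PSPH act in turn on a glycolytic intermediate, and SHMT2 passes the carbon of serine to folate in mitochondria.

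ATF4 binds DNA with C/EBP partners at composite elements, which were looked for in RefSeq promoters of GRCm38.p6 from 250 bases before to 50 after each annotated start. All 10 genes had a promoter there, in 12 windows. The motif TGATGNAA, read on both strands, was found in 3 of the 10 genes, against 4.51% of 27025 genes. The looser motif TGNNGCAA, read on both strands, was found in 4 of the 10, against 13.0% of genes. The motifs overlap, and 1 place in Chac1 fits both. The stretches shown are the matches of the first motif that lie before a start (Asns, Chac1) and a pair of matches of the looser one that share a longer run (Psat1, Trib3). Capitals mark the match, and each is read 5′ to 3′ along the gene's own strand.
Asns, chr6:7693210-7693262, minus strand: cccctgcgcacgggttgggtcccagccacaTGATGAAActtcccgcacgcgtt
Chac1, chr2:119351019-119351086, plus strand: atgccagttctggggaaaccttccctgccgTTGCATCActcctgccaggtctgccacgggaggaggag
Psat1, chr19:15925158-15925225, minus strand: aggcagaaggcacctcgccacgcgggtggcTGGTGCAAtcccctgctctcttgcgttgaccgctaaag
Trib3, chr2:152344061-152344123, minus strand: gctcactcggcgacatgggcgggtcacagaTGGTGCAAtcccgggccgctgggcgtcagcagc
The matches lie from base -23 to -16 before the start in Asns, -193 to -186 in Chac1, -136 to -129 in Psat1 and -33 to -26 in Trib3. The Psat1 and Trib3 stretches share TGGTGCAATCCC, 12 bases that 4 of 32851 promoters hold. This run was chosen as the longest that the promoters of Psat1 and Trib3 share, so the 4 include both. Trib3 also had TTACATCA from base 15 to 22 after its start. Atf5 had TTGCGCCA from base -239 to -232, and Chac1 had 2 further matches of the looser motif. A match is a description of these letters and not a bound site.

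**Figure D1:**
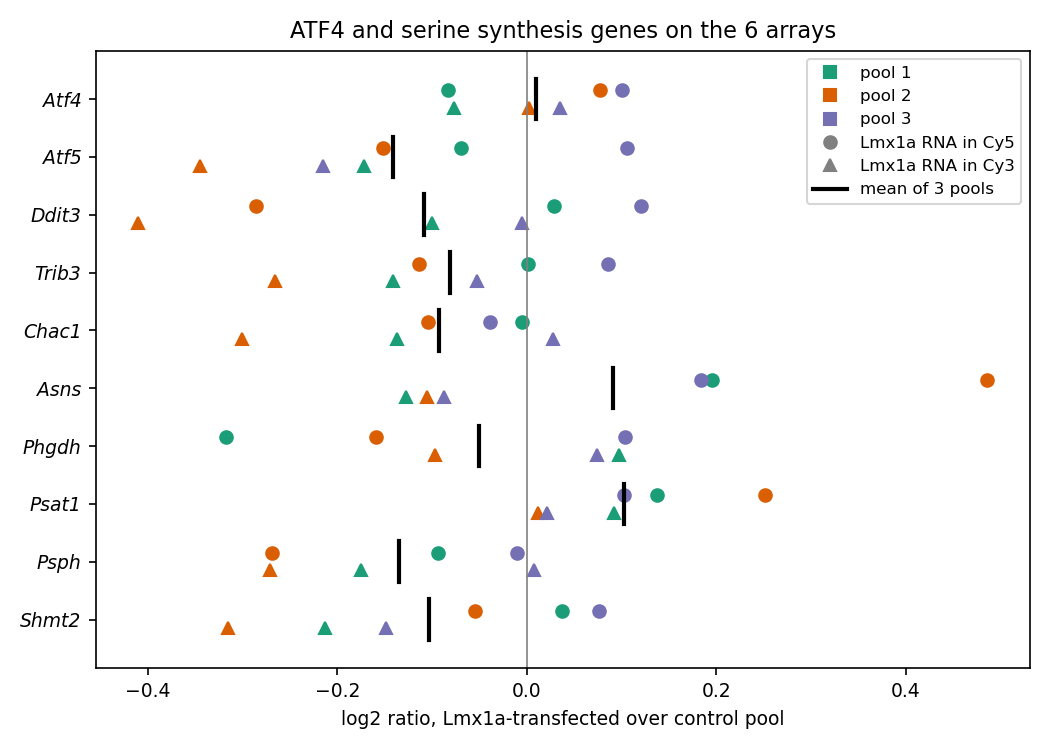
Log2 ratios of Lmx1a-transfected over control RNA for the brightest spot of each of the 10 genes. Each point is 1 array, coloured by pool and shaped by the dye of the Lmx1a RNA, and the bar is the mean of 3 pools. Psat1 lies above 0 on all 6 arrays, Asns is split by dye, and pool 2 gives the lowest ratio of Ddit3, -0.41.

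Atf4 (chr15:80255184-80257545) did not stand apart from 0. Its brighter spot had log2 ratios of -0.083, 0.077 and 0.10 in pools 1, 2 and 3 with Lmx1a RNA in Cy5. With Lmx1a RNA in Cy3 the same spot had -0.076, 0.0028 and 0.035. Pool 1 was below 0 in both orientations and pools 2 and 3 were above, and the mean was 0.0094 ± 0.078 (SD, n = 3). The second spot had a mean of 0.054 ± 0.061, and there pool 2 was the one below 0, at -0.014. The spots thus disagreed on which pool was lowest.

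The other transcription factors, Atf5 and Ddit3, had means below 0, with pool 2 lowest in each. Atf5 (chr7:44812256-44816658) encodes a factor close to ATF4 that is also translated more under stress. Its ratios were -0.069, -0.15 and 0.11 with Lmx1a RNA in Cy5 and -0.17, -0.35 and -0.22 with Lmx1a RNA in Cy3. Of the 6 arrays 5 were below 0, and the mean was -0.14 ± 0.099, the lowest of the 10 genes. Ddit3 (chr10:127290793-127296291) encodes CHOP, a factor of prolonged stress and cell death. Its ratios were 0.029, -0.29 and 0.12 with Lmx1a RNA in Cy5 and -0.10, -0.41 and -0.0045 with Lmx1a RNA in Cy3. Both arrays of pool 2 were low, and the pool means were -0.035, -0.35 and 0.058. The mean of -0.11 ± 0.21 therefore lay within the spread, and without pool 2 it was 0.011.

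Trib3 and Chac1, which act downstream of ATF4 and CHOP, had the same order of pools as Ddit3. Atf5, Psph, Shmt2 and the brightest Phgdh spot had this order too, with pool 2 lowest and pool 3 highest. Trib3 (chr2:152337425-152344060) encodes a pseudokinase that holds back ATF4 and CHOP. Its ratios were 0.0016, -0.11 and 0.086 with Lmx1a RNA in Cy5 and -0.14, -0.27 and -0.052 with Lmx1a RNA in Cy3, with a mean of -0.081 ± 0.10. Chac1 (chr2:119351242-119354326) encodes an enzyme that breaks down glutathione. Its ratios were -0.0049, -0.10 and -0.039 with Lmx1a RNA in Cy5 and -0.14, -0.30 and 0.028 with Lmx1a RNA in Cy3, with a mean of -0.093 ± 0.10. Pool 2 was lowest and pool 3 nearest to or above 0 in both genes, and neither mean exceeded the SD between pools.

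Asns (chr6:7675165-7693209), encoding asparagine synthetase, took its sign from the dye. Its ratios were 0.20, 0.49 and 0.18 with Lmx1a RNA in Cy5, and -0.13, -0.11 and -0.088 with Lmx1a RNA in Cy3. The orientations did not overlap. The mean of both was 0.091 ± 0.086. On the array of pool 2 with Lmx1a RNA in Cy3 the spot had a net brightness of 2524 units in the Lmx1a channel and 6147 in the control channel. On the other 5 arrays the Lmx1a channel lay between 266 and 1050 units and the control channel between 314 and 983.

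The enzymes of serine synthesis lay on both sides of 0. Phgdh (chr3:98313171-98339969), the first enzyme, had ratios of -0.32, -0.16 and 0.10 with Lmx1a RNA in Cy5 at its brightest spot and 0.097, -0.097 and 0.074 with Lmx1a RNA in Cy3. Its mean was -0.050 ± 0.12, and pool 1 changed sign with the dye. The next 2 spots gave means of -0.048 ± 0.026 and -0.061 ± 0.053, both below 0 on 5 of 6 arrays. The second of these was detected in the Lmx1a channel on 4 of 6 arrays and in the control channel on 5. The last Phgdh spot was below the detection limit in both channels throughout, and no ratio is given for it.

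Psat1 (chr19:15905123-15925059), the second enzyme, was the only one of the 10 genes with a ratio above 0 on all 6 arrays. A share of 2.98% of all 17865 genes had this, as did 434 of the 9356 named genes detected on every array. Since this contrast entered the choice of genes, nothing is read from the count. Its ratios were 0.14, 0.25 and 0.10 with Lmx1a RNA in Cy5 and 0.092, 0.012 and 0.022 with Lmx1a RNA in Cy3. The pool means were 0.11, 0.13 and 0.062, and the mean of 0.10 ± 0.036 (SD, n = 3), or 1.07-fold, was larger than the SD between pools. The ratio was larger with Lmx1a RNA in Cy5 in every pool, with means of 0.16 in Cy5 and 0.042 in Cy3.

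Psph and Shmt2 had means below 0. Psph (chr5:129765558-129787443), which releases serine in the last step, had ratios of -0.093, -0.27 and -0.010 with Lmx1a RNA in Cy5 and -0.17, -0.27 and 0.0075 with Lmx1a RNA in Cy3. Its orientations gave nearly the same means, -0.12 in Cy5 and -0.15 in Cy3, but its pools differed, at -0.13, -0.27 and -0.0013. The mean was -0.14 ± 0.13. Shmt2 (chr10:127517123-127522444) had ratios of 0.037, -0.054 and 0.076 with Lmx1a RNA in Cy5 and -0.21, -0.32 and -0.15 with Lmx1a RNA in Cy3. All 3 arrays with Lmx1a RNA in Cy3 were below the 3 with it in Cy5, and the mean was -0.10 ± 0.075.

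Over the 10 genes, 3 had a mean log2 ratio above 0, against 51.5% of all named genes. The median was -0.087, against 0.00093 over all named genes. By pool the median was -0.075, -0.19 and 0.032, and 2, 3 and 6 genes were above 0. Pool 2 thus weighed most, and without it the median was -0.019, against -0.13 without pool 3 and -0.095 without pool 1. Those with means above 0 were Psat1, Asns and Atf4. The other 7 had means between -0.14 and -0.050. At a Benjamini-Hochberg adjusted p of 0.05, limma called 0 of the 10, as it called 0% of 31769 spots, the Lmx1a spot among those not called. At an unadjusted p under 0.05, 2 members were higher, against 6.92% of genes, and 3 were lower, against 4.93% of genes. All 10 were detected, and of 9356 named genes detected on every array 1098 were higher and 753 lower. A limma fit of all 6 arrays with pool as a replicate block called 0 of the 10, against 0.75% of genes. As the genes were chosen on this contrast, these counts are set down without a reading.

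**Figure D2:**
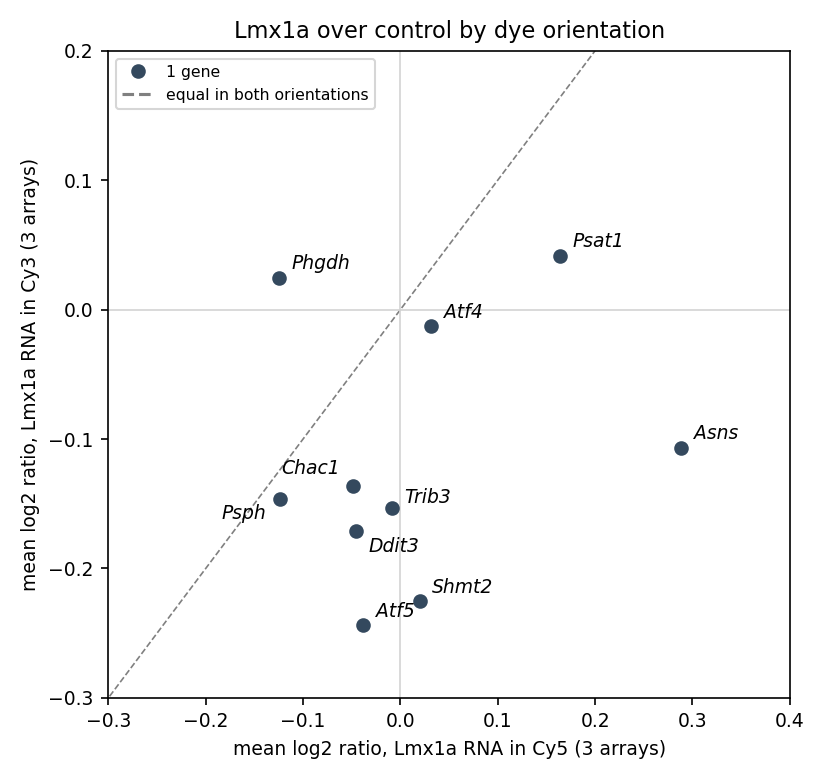
Mean log2 ratio of the 3 arrays with Lmx1a RNA in Cy5 (horizontal) and of the 3 arrays with it in Cy3 (vertical) for each gene. Points on the dashed line would be equal in both orientations. Asns lies at 0.29 and -0.11, and 9 of the 10 genes lie below the line.

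The Cy5 over Cy3 ratio is built from the same per-array ratios that entered the choice of genes, so it is a description as well. It was largest in Asns, at 0.20 ± 0.086 on the log2 scale (SD, n = 3). Shmt2 had 0.12 ± 0.0093, Atf5 had 0.10 ± 0.055 and Trib3 had 0.072 ± 0.0033. The dye ratio exceeded the size of the Lmx1a ratio in Asns and Shmt2 and was smaller in Trib3 and Atf5. At the brightest spots Phgdh alone had a negative dye ratio, -0.075 ± 0.12. Its next 2 spots had positive ones, 0.048 ± 0.0078 and 0.043 ± 0.047. In limma's fit of dye bias over all spots, 4 of the 10 genes were among those called brighter in Cy5, a call made for 3.04% of named genes. None of the 10 were among those called brighter in Cy3, 4.22% of named genes. Nothing is read from these counts, and the first of them was 1 without replicate 2, 1 without replicate 3, 2 in the replicate block fit and 0 with plain background subtraction.

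**Figure D3:**
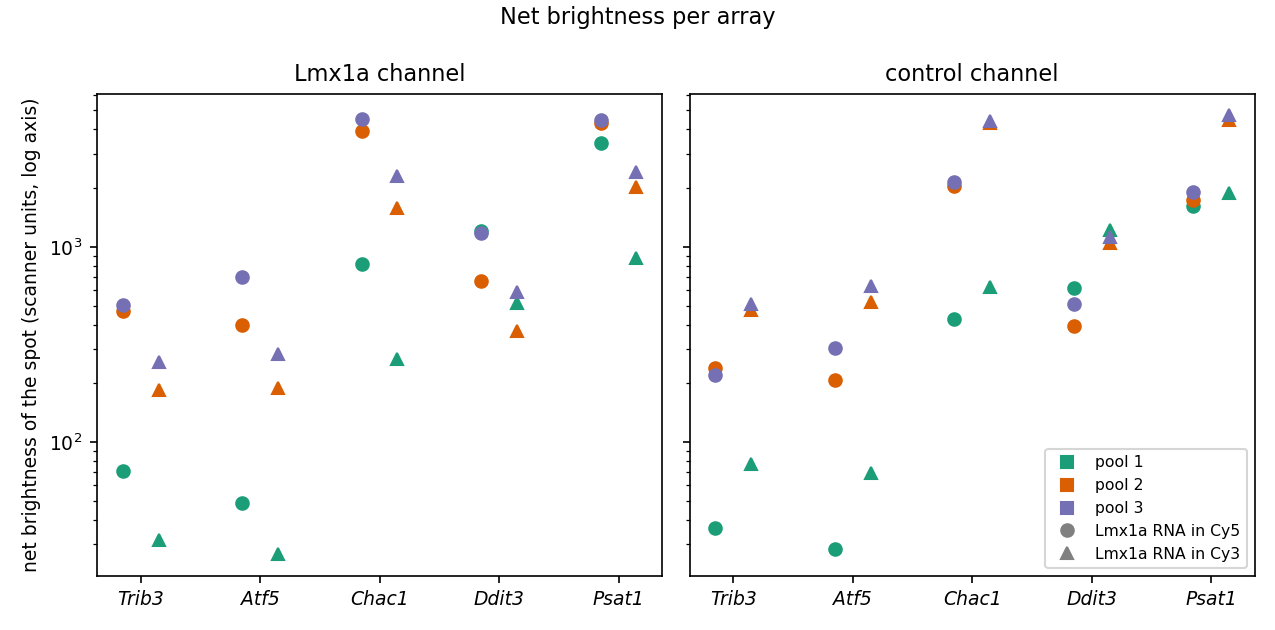
Net brightness (spot mean minus background median, scanner units, log axis) of 5 genes on each array, in the Lmx1a channel (left panel) and the control channel (right panel). Trib3, Atf5 and Chac1 are dim in both channels on both arrays of pool 1, for example 28.4 units for Atf5 in the control channel, while Ddit3 and Psat1 are not set apart in this way.

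Net brightness, which was also in view when the genes were chosen, was low for Trib3, Atf5 and Chac1 on the arrays of pool 1. Atf5 had net brightnesses in the Lmx1a channel of 49.0 and 26.8 units on the 2 arrays of pool 1, and between 190 and 700 units on the other 4. In the control channel, which held the same RNA on every array, Atf5 had 28.4 and 69.2 units beside pool 1 and between 209 and 633 units beside pools 2 and 3. Chac1 had 821 and 265 units in the Lmx1a channel of pool 1 and between 1580 and 4524 in the other pools. In the control channel it had 427 and 622 units beside pool 1, against 2039 to 4434 beside the others. Trib3 had 71.4 and 31.6 units against 185 to 504 in the Lmx1a channel, and 36.1 and 77.2 units against 222 to 510 in the control channel. So these spots were dim on the arrays of pool 1 with either RNA. After scaling each array by its median, both pool 1 arrays lay below the other 4 in both channels for these 3 of the 10 genes. The same held for 14.1% of 9356 detected genes, and nothing is read from the count. The control-channel difference on the log2 scale was -2.23 for Atf5, -1.81 for Trib3 and -1.69 for Chac1, and 1.21%, 3.44% and 4.38% of detected spots were as low or lower. Ddit3 lay on the other side, at 1.18, and Psat1 near 0, at 0.14. The part of brightness in their log2 ratios was not tested. With plain background subtraction Atf5 was at -0.21, Trib3 at -0.12 and Chac1 at -0.096.

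**Figure D4:**
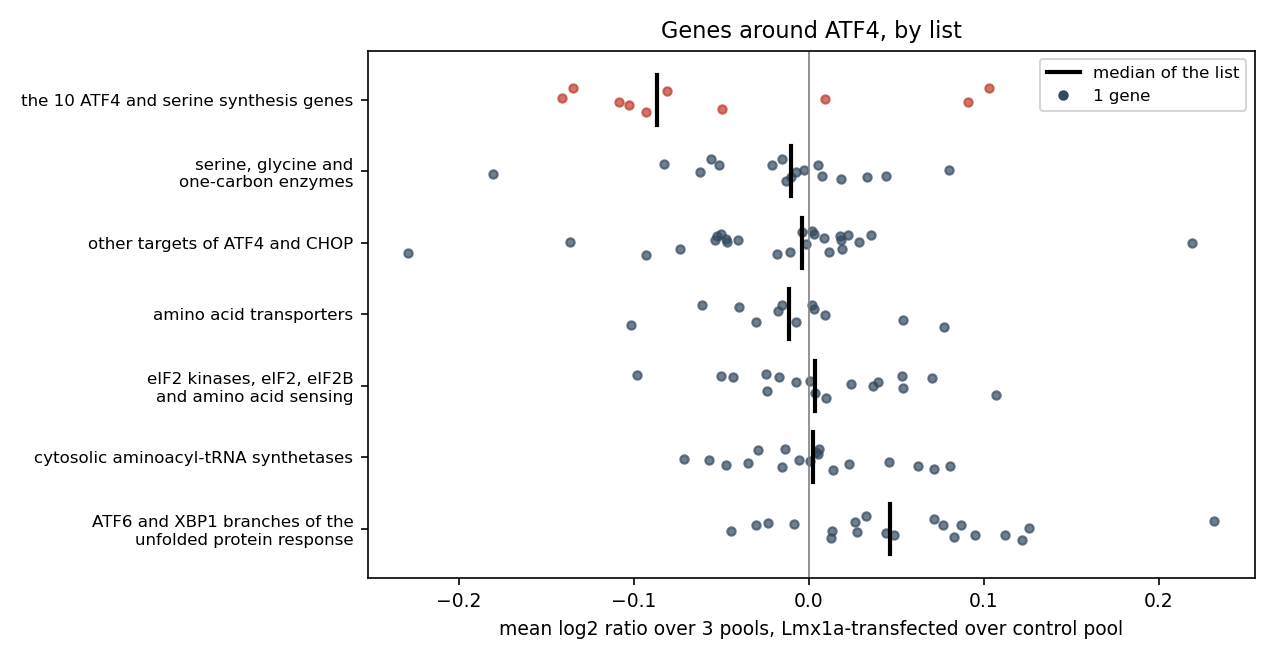
Mean log2 ratio over 3 pools for each of the 10 genes (red) and for the genes of 6 related lists (dark), with the median of each list as a bar. Medians of the lists lie between -0.011 and 0.046, and that of the 10 genes at -0.087.

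Further genes of these pathways were taken in 6 lists, of which 109 of 117 genes were on the array, and counts "before adjustment" are those at an unadjusted p under 0.05. Over all named genes 51.5% were above 0, 6.92% were higher and 4.93% were lower before adjustment. Limma's fit of the 3 pools called 0 of the 109 at an adjusted p of 0.05, and the replicate block fit called 2, Pdia6 higher and Amt lower, against 0.75% of all named genes. Serine, glycine and one-carbon enzymes had 6 of 17 genes above 0 and a median of -0.010, with 1 gene higher and 1 lower before adjustment (all genes 6.92% and 4.93%). Amt, of the glycine cleavage system, was at -0.18 ± 0.017 (limma adjusted p 0.0779), but its ratio sat in 1 orientation, at -0.35 in Cy5 and -0.015 in Cy3. This is the brighter of its 2 spots. Net brightness there ran from 38.4 to 144 units in the Lmx1a channel and from 47.1 to 158 in the control channel. The lower ends are near the offset of 50 units. Mthfd1 and Mthfd2, which carry folate-bound carbon in the cytosol and in mitochondria, were at 0.080 ± 0.030 (adjusted p 0.211) and 0.044 ± 0.026 (adjusted p 0.428).

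The other targets of ATF4 and CHOP lay on both sides of 0, with 11 of 25 above it, a median of -0.0039, and 1 higher and 4 lower before adjustment (all genes 6.92% and 4.93%). One of those lower, Fgf21, is named after its values were seen, because no array detected it in the Lmx1a channel and 1 did in the control channel. Nupr1, a small stress-induced chromatin protein, was at -0.23 ± 0.15 (limma adjusted p 0.209), and Bbc3, encoding the death protein PUMA, at -0.14 ± 0.070 (adjusted p 0.180). Both were uneven between orientations. Nupr1 was at -0.35 in Cy5 and -0.10 in Cy3, and Bbc3 at -0.26 in Cy5 and -0.0092 in Cy3. Ero1a, an oxidase of the endoplasmic reticulum, was at 0.22 ± 0.21 (adjusted p 0.340). Its pools were at 0.45, 0.037 and 0.17, and without pool 1 its mean was 0.11. None of the 3 passed. Amino acid transporters had 5 of 12 above 0 and a median of -0.011, with 2 higher and 0 lower before adjustment (all genes 6.92% and 4.93%). The glutamine carriers Slc38a2 and Slc38a1 were at 0.077 ± 0.054 (adjusted p 0.311) and 0.054 ± 0.029 (adjusted p 0.351). Both were positive in Cy5, at 0.18 and 0.14, and slightly negative in Cy3, as was Asns. Slc1a5, a carrier of neutral amino acids, was at -0.040 ± 0.019 (adjusted p 0.454).

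Upstream of ATF4, the eIF2alpha kinases, eIF2, eIF2B and amino acid sensors had 10 of 17 above 0 and a median of 0.0034, with 3 higher and 3 lower before adjustment (all genes 6.92% and 4.93%). Eif2s3x, the gamma subunit of eIF2, was at 0.11 ± 0.054 (limma adjusted p 0.200), Eif2b3 at 0.054 ± 0.015 (adjusted p 0.297), and Castor1, an arginine sensor, at -0.098 ± 0.068 (adjusted p 0.276). Cytosolic aminoacyl-tRNA synthetases had 10 of 18 above 0 and a median of 0.0025, with 1 higher and 1 lower before adjustment (all genes 6.92% and 4.93%). Nars was at 0.080 ± 0.030 (adjusted p 0.206) and positive on all 6 arrays, Gars at 0.072 ± 0.080 (adjusted p 0.477), and Qars at -0.057 ± 0.038 (adjusted p 0.365).

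The ATF6 and XBP1 branches of the unfolded protein response, which run beside the branch through ATF4 and raise chaperones of the endoplasmic reticulum, had 16 of 20 genes above 0, against 51.5% of all genes, and a median of 0.046. Before adjustment 10 were higher, against 6.92% of all genes, and 0 were lower, against 4.93%, and 0 passed the adjusted threshold. Of the 20 genes 18 were detected on every array, and of 9356 such named genes 1098 were higher and 753 lower. The median was 0.030, 0.081 and 0.038 in pools 1, 2 and 3. Pool 2 was therefore the pool with the highest median here and the lowest in the 10 genes around ATF4, a difference that was not tested. Pdia6 and Pdia4, protein disulfide isomerases, were at 0.11 ± 0.023 (limma adjusted p 0.115) and 0.12 ± 0.066 (adjusted p 0.197). Hspa5, the main chaperone of the endoplasmic reticulum, was at 0.077 ± 0.031 (adjusted p 0.224). All 3 were positive on all 6 arrays, and with the replicate block their adjusted p-values were 0.0257 (Pdia6), 0.0833 (Pdia4) and 0.101 (Hspa5). Pdia6 was uneven between orientations, at 0.1875 in Cy5 and 0.0368 in Cy3. Pdia4 was at 0.1137 in Cy5 and 0.13 in Cy3, and Hspa5 at 0.0536 in Cy5 and 0.1002 in Cy3. Pdia4 was dim on the arrays of pool 1, with net brightnesses of 11.22 to 23.85 units over both channels. On the arrays of pools 2 and 3 Pdia4 had 124.8 to 328.7 units.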

How the data were processed

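Intensity of each spot on 6 two-colour arrays was deposited as pixel means and background medians and standard deviations on a linear scale, per the file headers. The scanner software is not given in the sources used here. Log2 ratios were deposited as well and were used as an alternative. They run Lmx1a over control on every array (correlation with the ratios here 0.922 to 0.962 across spots) with column medians of -0.0034 to 0.0042. Their scale and centring are not stated by the labels.

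Background was corrected with normexp (offset 50) and ratios were normalized by loess (span 0.3), with 3223 control spots at weight 0. The arrays of a pool were averaged and tested against 0 with limma 3.58.1 in R 4.3.3, adjusted over all 31769 spots. Dye bias was fitted likewise on unturned ratios, and its counts among the members are a description. The replicate block fit used 6 arrays, a dye term and duplicateCorrelation (consensus 0.0684). Detection meant 2 background standard deviations. A gene's value is its brightest spot. Symbols from GEO's platform annotation were updated through RefSeq for 2865 spots and kept as given for 65.

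Members and lists were chosen with earlier results of these data known. The text names all members and, per list, the 3 genes of smallest p where none passed. The number of arrays limits precision.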

Additional observations from a re-analysis of the deposited data

Results flagged for a closer look

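In 28 groups of 6 arrays (the log2 ratio and the control-channel brightness of each of 14 spots), 3 held an array far from the others. About 1 group in 20 is expected to do so by chance. The third Phgdh spot had a log2 ratio of -0.2114 in pool 2 with Lmx1a RNA in Cy3, against -0.058 to 0.019 on the other 5 arrays. The brighter Atf4 spot had a net brightness of 1213 units in the control channel of the pool 1 array with Lmx1a RNA in Cy3, against 2880 to 7908 on the others. The second Phgdh spot had 91.23 units on that same array, against 15.9 to 44.6. Brightness was compared after scaling each array by its median.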

How the results depend on the processing

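The median of the 10 genes was below 0 under all 15 alternatives, from -0.14 on the arrays with Lmx1a RNA in Cy3 alone to -0.019 without replicate 2, and 2 to 4 genes were above 0. Of 194 values of single spots under alternatives, 176 moved by less than the SD between pools. These include the replicate block fit, a trended and robust prior in limma, and the limit to detected spots. Those settings leave each ratio as it was, so their spot values and their median of -0.087 could not move. Psat1 was at 0.029 with median centring and above 0 throughout. Shmt2 was at 0.020 with Lmx1a RNA in Cy5 alone, Asns at -0.11 and Phgdh at 0.025 with it in Cy3 alone, Atf4 at -0.055 with median centring, and Ddit3 at 0.011 without replicate 2.

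Spots called for Lmx1a over control numbered 0 in the fit of 3 pools, 49 with median centring, 993 with Lmx1a RNA in Cy5, 215 with it in Cy3, 333 in the replicate block fit and 1 without the dimmest array. Leaving out a replicate gave 0 to 1. With Lmx1a RNA in Cy5, 6 of the 109 list members were called, 2 higher and 4 lower. Of all 31769 spots, 340 were called higher and 653 lower in that setting. In the replicate block fit 2 list members were called, 1 higher and 1 lower, against 95 higher and 238 lower of all 31769 spots. Nothing is read from these counts. Signs turned for Mthfd2 (-0.011) and Gars (-0.062) with median centring, for Mthfd1 (-0.014) with Lmx1a RNA in Cy5, and for Slc38a2 (-0.023), Slc38a1 (-0.030) and Eif2b3 (-0.0062) with it in Cy3. None of these had passed in the fit of 3 pools. Slc38a2 was among the 6 list members called with Lmx1a RNA in Cy5 alone, at 0.18 (limma adjusted p 0.0209), and its sign turned in Cy3.

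Of all 31769 spots 2160 were dye-biased, with 4261 without background correction, 1 with plain subtraction and 24782 with median centring. Median centring leaves the dye trend with brightness in place. Leaving out a replicate gave 503 (without replicate 3) to 1514, and 722 without replicate 2. Of the 10 genes 4 were called, with 2 without background correction, 0 with plain subtraction, 10 with median centring, 2 in the replicate block fit and 2 without the dimmest array. Leaving out a replicate gave 1 to 3. These counts are to be set beside the totals over all spots in the same settings, and nothing is read from them. The cause of these shifts was not tested. Dim spots and the number of arrays limit all of these values.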

Other observations

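The genes most like the 10 in their pattern over the 6 arrays, by correlation with the median ratio of the 10 on each array, were Hmox1 (r = 0.996), Trmt112 (0.991), Lmo4 (0.986), Galp (0.979) and Fhl1 (0.977). They were the closest of 9346 detected genes outside the 10. The 6 arrays are 3 pools in 2 orientations against 1 control pool, so the points share RNA and dye bias, and the values are a description. Hmox1, encoding the heme-degrading enzyme heme oxygenase, had a mean log2 ratio of -0.042 ± 0.11, and Trmt112, a partner of methyltransferases, -0.065 ± 0.057 (SD, n = 3).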
